A study of Canis lupus familiaris with 11 samples.

Results

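The genes described here are 36 genes of mitosis and cytokinesis, the steps in which a cell separates its copied chromosomes and then divides in 2. They were followed in the stromal vascular fraction (SVF) of dogs, the pellet of stromal, vascular and blood-derived cells that is spun down after fat has been digested. A gene was taken through the array features that name that gene alone, and where there were several, through the one with the highest mean over the 8 arrays of dogs 2 and 3. In this way 34 of the 36 genes could be read, out of 15947 genes on the array. CCNB1 is named by 1 feature that also names another gene, and AURKA could not be assigned a feature here, so neither is reported.

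All samples were visceral fat, profiled as total RNA on 11 Affymetrix arrays. Company B, company C and company A each digested about 20 g of fat from a 6 year old neutered male Labrador by its own method, and the untreated SVF was frozen for 1 month and thawed (1 array each). Dogs 2 and 3, which share a single description (a neutered male of 10 years, German Shepard mix), had their fat digested by 1 company. Part of it was treated with photo-activated platelet-rich plasma (PRP) and incubated for 6 h at 37 °C (PRP arrays, 2 per dog), and part was left without incubation (SVF arrays, 2 per dog). The effects of PRP and of incubation cannot be told apart, since no array had 1 without the other. Whether the 2 arrays of a group came from separate preparations is not stated, and the p-values below therefore rest on a spread between arrays that may be technical. Levels are log2 values, on which 1 unit is a 2-fold difference. Array medians were 5.14 to 5.31 in the company arrays and 6.76 to 6.85 in those of dogs 2 and 3, and how the sets were scaled is not known, so levels were compared only within a set and only within a gene. Stromal markers were present in all samples, with a median level of 10.8 to 11.0 over 12 genes in the company arrays and of at least 11.3 in the others. The number of arrays limits the precision throughout.

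Most cells of adult tissue do not divide, and in them these genes are largely silent. In a dividing cell they switch on together late in the cycle. CDK1 with its cyclins drives entry into mitosis, kinetochore proteins attach chromosomes to the spindle while a checkpoint holds the cell until all are attached, the anaphase-promoting complex then releases the chromosomes, and the central spindle and contractile ring cut the cell apart. Their summed RNA is widely read as a sign of how many cells of a sample are dividing. In a bulk sample, fewer dividing cells and less RNA per cell cannot be told apart.

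The first question was whether the SVF of the 3 companies differed in these genes. All 34 genes were higher in company B than in both company C and company A, where 28.5% of all genes were. Features with 1 value on all 3 company arrays (29.5% of all features) could not be higher, which lowers that share. None of the 34 genes was read from such a feature. The median difference between company B and the mean of the other 2 was 1.98 log2 units, against 0 over all genes. In 30 of the 34 it was at least 2-fold, where 3.87% of all genes were higher by that much, and 29 were at least 2-fold above each of the other 2 (2.84% of all genes). None was lower by 2-fold, where 5.58% of all genes were. At 4-fold above each there were 13 genes (0.477% of all genes). With 1 array per company these differences have no replicate check and no test. Some levels in company C or company A, among them CDK1, PLK1, NDC80, NUF2, BUB1 and TTK in company A and FOXM1 in company C, are values that other features share exactly on that array. Each of these lay above 35.6% to 74.3% of the features of its array, so they are not its lowest values, but whether a level was above background is not known, and the folds of such genes are approximate. Of the 15 members with no shared value in company C or company A, 12 were at least 2-fold higher in company B, with a median of 1.72.

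The genes of the central spindle and the contractile ring stood farthest apart, with a median of 2.54 log2 units over 7 genes. ANLN, the scaffold protein anillin of the contractile ring, had a level of 9.69 in company B, against 6.07 in company C and 6.10 in company A. That is 12.2-fold above the mean of companies C and A, and the largest difference among the 34. RACGAP1, which together with KIF23 forms the centralspindlin complex, read 8.89 in company B, 6.51 in company C and 5.92 in company A, or 6.40-fold. CEP55, which recruits the machinery of the final cut, read 7.41 in company B, against 3.92 in company C and 5.39 in company A. It was thus 11.2-fold above company C and 4.03-fold above company A. The company C level lay above 29.5% of the features of that array and was the lowest of the 34 genes there. PRC1, which bundles the microtubules of the central spindle, was 5.82-fold higher, ECT2, which switches on RhoA at the cleavage site, was 5.35-fold higher, and KIF20A, a motor of the central spindle, was 5.05-fold higher. KIF23 was 3.69-fold higher. The company B values of CEP55, KIF20A and KIF23 are shared exactly with other features of that array, so their folds are approximate too.

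The regulators of mitotic entry were also far apart. CDK1, the kinase that starts mitosis, had 7.47 in company B, 5.13 in company C and 4.58 in company A, a 6.12-fold difference. PLK1, a kinase that acts from entry to cytokinesis, had 8.23 in company B, against 5.70 in company C and 5.85 in company A (5.47-fold). FOXM1, a transcription factor for many of these genes, was 4.69-fold higher in company B. The cyclins CCNA2 and CCNB2 were 3.37-fold and 2.84-fold higher.

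Among the kinetochore and checkpoint genes the median difference was 1.89 log2 units over 8 genes. The checkpoint kinases TTK and BUB1 and the checkpoint protein BUB1B were 4.51-fold, 4.02-fold and 4.48-fold higher in company B. NUF2 and NDC80, subunits of the complex that grips microtubules, were 4.38-fold and 3.41-fold higher. CENPA, the histone that marks centromeres, had 5.18 in company B, against 4.78 in company C and 4.79 in company A, and its 1.32-fold difference was the smallest of the 34. The motor CENPE (2.37-fold) and CENPF (3.14-fold) lay between.

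Of the spindle genes, DLGAP5, a protein of spindle microtubules, read 8.85 in company B, 6.16 in company C and 5.93 in company A, or 7.01-fold. TPX2, which activates the kinase aurora A on the spindle, was 4.30-fold higher and KIF11, the motor that pushes the spindle poles apart, was 3.97-fold higher. CKAP2 (1.74-fold) and HMMR (1.59-fold), 2 proteins that bind spindle microtubules, did not reach 2-fold. NUSAP1, which binds spindle microtubules near the chromosomes, was 2.93-fold higher and KIF2C, a motor that takes microtubules apart, 2.85-fold. A second feature that names NUSAP1 was higher in company B by only 0.31 log2 units, which is below 2-fold. Of the chromosomal passenger complex, which corrects faulty attachments, the survivin gene BIRC5 was 5.01-fold higher, CDCA8 2.88-fold and the kinase AURKB 1.94-fold. The anaphase-promoting complex's activator CDC20 was 3.93-fold higher and its ubiquitin-conjugating enzyme UBE2C 3.30-fold. TOP2A, which untangles DNA, had 8.68 in company B, 6.79 in company C and 6.84 in company A (3.66-fold). MKI67, the Ki-67 protein that coats mitotic chromosomes, had 7.86 in company B, 5.87 in company C and 7.01 in company A, and was therefore 3.95-fold above company C and 1.79-fold above company A.

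**Figure D1:**
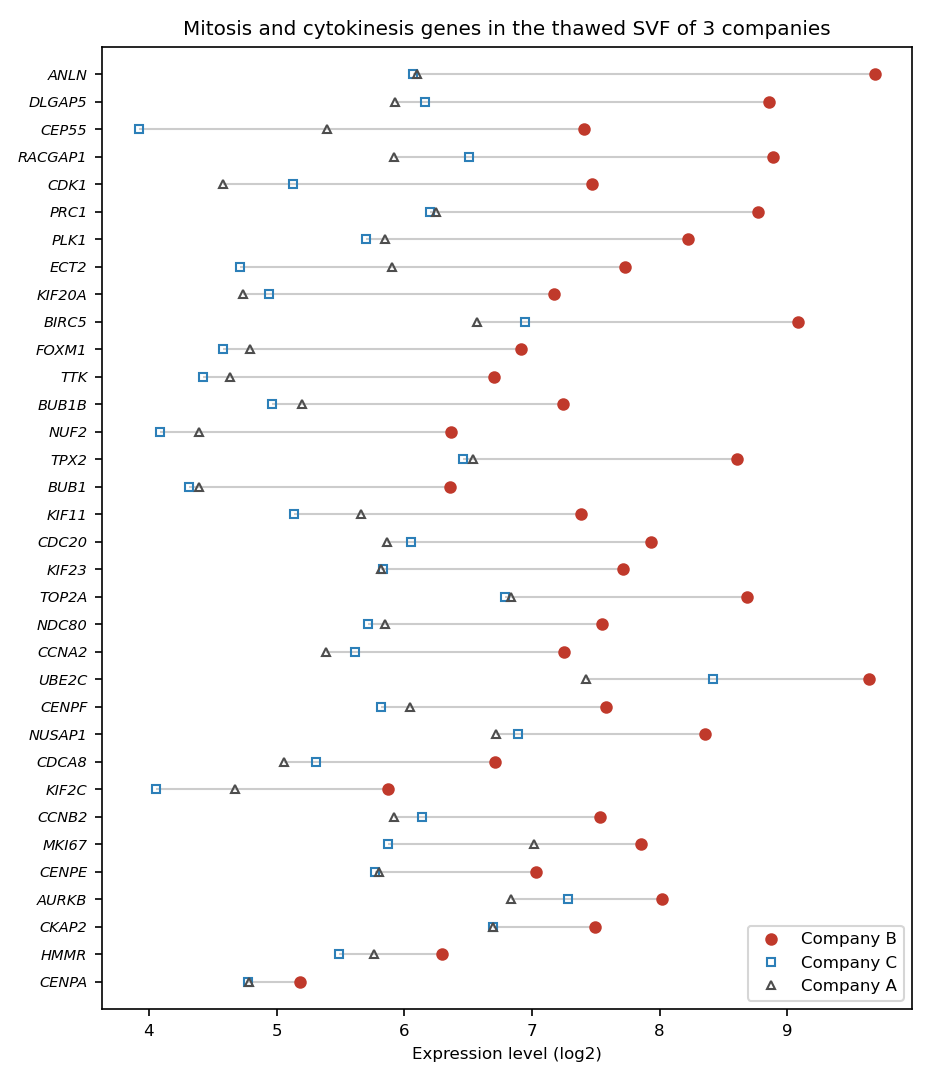
Level (log2, horizontal) of each of the 34 genes in the thawed SVF of company B (filled circles), company C (squares) and company A (triangles), 1 array each, ordered by the difference between company B and the mean of the other 2. The company B point lies right of both others in every gene, from CENPA (1.32-fold) to ANLN (12.2-fold).

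Between companies C and A the median difference was near 0. The median of company C minus company A was -0.042 log2 units, with 13 of 34 genes above 0, where 28.1% of all genes were. With each array centred on its median it was 0.010, and after quantile normalization 0.0030, so its sign depended on the scaling. By at least 2-fold, 3 genes were lower in company C (0.426% of all genes): MKI67 by 1.14, ECT2 by 1.19 and CEP55 by 1.47 log2 units. Other features of the array share exactly the MKI67 value of company A and the ECT2 value of company C. The MKI67 and ECT2 differences are therefore approximate. None of the 34 was higher in company C by 2-fold (1.21% of all genes), and UBE2C, at 8.42 in company C and 7.42 in company A, came closest.

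Other genes of mitosis, a list of 71 without the 34, were mostly higher in company B too. By at least 2-fold 38 were higher (3.87% of all genes), 67 were above 0 (38.6% of all genes) and the median was 1.05. CDCA3, which promotes mitotic entry, had 9.23 in company B, 5.89 in company C and 6.56 in company A (8.05-fold). The mitotic kinase PBK was 6.78-fold and the securin gene PTTG1, whose product holds back separation of the chromosomes, was 6.21-fold higher. WEE1, the kinase that restrains CDK1, was lower by 0.53 log2 units, and CKS2 was lower by 0.25. CDCA5 had 4.48 on all 3 arrays.

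Markers of several cell types were lower in company B in the same arrays. The 10 macrophage markers had a median level of 5.45 in company B, 8.12 in company C and 7.71 in company A, and a median difference of -2.41, with 0 of 10 above 0. The median difference was -1.08 for 7 mast cell markers, -0.90 for 11 endothelial and -0.80 for 12 T and NK cell markers. In each of these lists 0 were above 0. The 5 platelet markers had -0.81, with 0 above 0. Their median was -0.96 against company C but 0.22 against company A, where 3 of 5 were above 0. Over 12 stromal markers the median difference from the mean of the other 2 was 0.041, with 7 above 0 and a range of -1.88 to 0.95. The part of this cell make-up in the difference of the mitosis genes was not tested. Of all features 29.5% had 1 and the same value on the 3 company arrays. None of the 34 genes was among them, although CKAP2 had the same value in companies C and A. A value shared exactly with another feature was found for 3 of the 34 genes in company B, 5 in company C and 15 in company A, and for 49.97%, 52.7% and 52.6% of all features in that order.

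In dogs 2 and 3, the titles number the 2 arrays of each group 1 and 2 in both dogs and both conditions. What the numbers mark is not stated. The mitosis genes differed along this number. In 26 of the 34 genes number 2 was lower than number 1 in all 4 pairs of arrays (PRP and SVF of each dog), where 20.2% of all genes were. None was higher in all 4 (11.8% of all genes). The members' median difference was -0.55 in dog 3 PRP, -0.67 in dog 2 PRP, -0.64 in dog 3 SVF and -0.38 in dog 2 SVF, while the median over all genes lay between -0.094 and -0.0064. Averaged over the dogs, 1 member was above 0 on the PRP arrays (46.2% of all genes) and 3 on the SVF arrays (43.7%).

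KIF23, the motor subunit of centralspindlin, had 5.35 and 5.04 on the PRP arrays numbered 2 of dogs 3 and 2, against 6.72 and 6.29 on those numbered 1. On the SVF arrays it had 5.55 and 5.21 at number 2, against 6.45 and 5.94 at number 1. All 4 arrays numbered 2 lay below all 4 numbered 1. Its difference on the PRP arrays was -1.31 ± 0.13 (SE), 2.47-fold lower, and it was the only member past the adjusted threshold (limma, adjusted p = 0.045), as were 0.125% of all genes. This call was lost without any 1 of 7 of the 8 arrays and with quantile normalization (adjusted p = 0.0542); it held without dog 2 PRP 2. Over the arrays left out, the difference lay between -1.37 and -1.25.

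At an unadjusted p below 0.05, 21 of the 34 genes were lower in number 2 on the PRP arrays (9.77% of all genes) and 21 on the SVF arrays (12% of all genes). The same gene was lower on both kinds of array in 17 cases and on either in 25. The matching shares of all genes were not counted, so these 2 numbers have no background to be read against. None was higher on the PRP arrays (9.23% of all genes) or the SVF arrays (5.74%). On the SVF arrays no member passed the adjusted threshold, and none of all 15947 genes did, and the lowest adjusted p among the members was 0.108 (MKI67). With each array left out in turn the PRP count lay between 14 and 23. The SVF count fell to 7 without dog 3 SVF 1, 12 without dog 3 SVF 2 and 13 without dog 2 SVF 2, and was 19 or 20 without any other array.

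MKI67 had 7.59 and 6.94 on the PRP arrays numbered 2 of dogs 3 and 2, against 8.82 and 8.61 on those numbered 1. On the SVF arrays it had 7.34 and 6.54 at number 2, against 8.72 and 7.96 at number 1. The 2 sets of 4 arrays did not overlap. Its differences were -1.45 ± 0.18 on the PRP arrays (adjusted p = 0.0664) and -1.40 ± 0.18 on the SVF arrays. TOP2A read 6.55, 5.97, 6.34 and 5.46 on the 4 arrays numbered 2 (PRP of dogs 3 and 2, then SVF of dogs 3 and 2), against 7.42, 7.48, 7.44 and 6.83 on those numbered 1. It did not overlap either, and differed by -1.19 ± 0.23 (PRP) and -1.24 ± 0.23 (SVF).

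KIF11 showed the largest difference of the 34 on the PRP arrays. In the same order of arrays it had 5.72, 5.78, 6.06 and 5.48 at number 2, against 7.64, 7.13, 7.21 and 6.52 at number 1, again without overlap. The difference was -1.64 ± 0.20, or 3.11-fold, on the PRP arrays (adjusted p = 0.0694) and -1.10 ± 0.20 on the SVF arrays. RACGAP1, the partner of KIF23, had 7.14, 6.60, 6.87 and 5.84 at number 2, against 7.87, 7.67, 7.65 and 7.28 at number 1. Its difference was -0.90 ± 0.21 on the PRP arrays and -1.11 ± 0.21 on the SVF arrays. CENPF, DLGAP5 and BUB1 were lower by 1.28, 1.21 and 1.05 log2 units on the PRP arrays, with SEs of 0.22, 0.21 and 0.34, and their adjusted p-values were between 0.109 and 0.233.

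**Figure D2:**
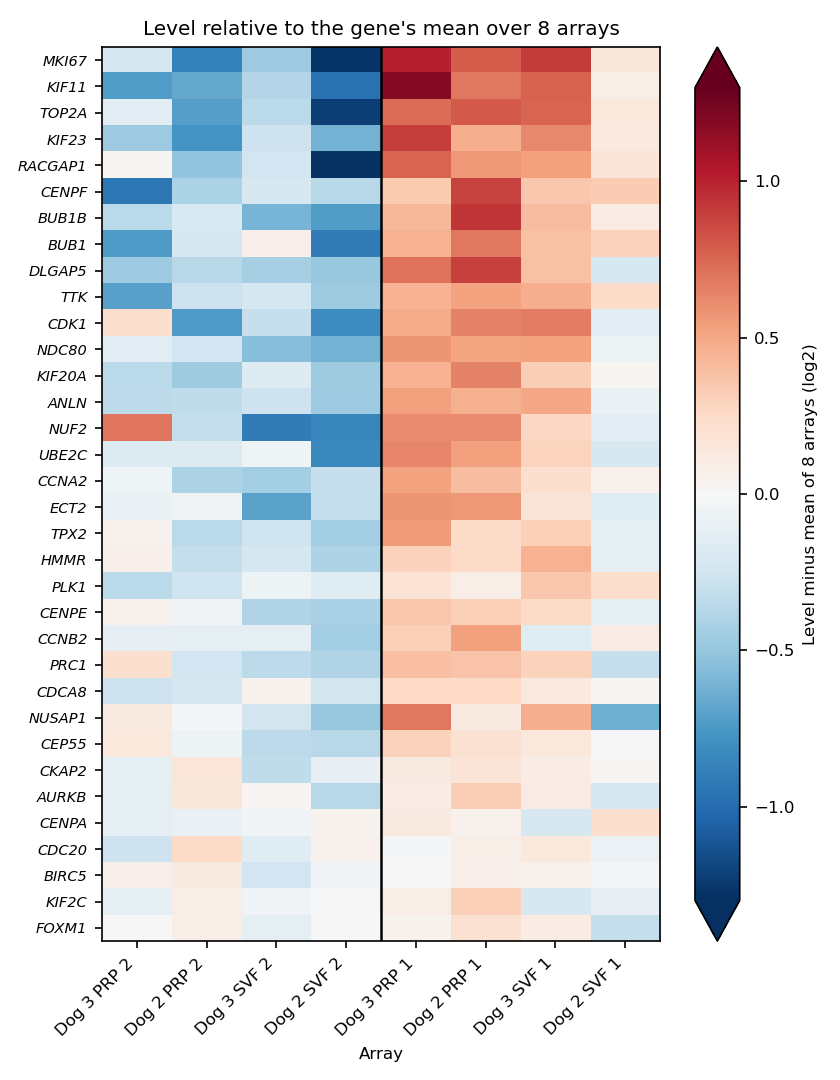
Level of each of the 34 genes on the 8 arrays of dogs 2 and 3, as the log2 difference from that gene's mean over the 8 arrays (red above, blue below, colours saturate at the ends of the scale), with arrays numbered 2 left of the black line and arrays numbered 1 right of it. Genes are ordered by their mean difference between the numbers, and in the upper rows the left columns are blue and the right ones red, while the lowest rows show no such split.

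By role, number 2 was lower in all 4 pairs for 7 of 7 genes of the central spindle and cytokinesis (20.2% of all genes). So were both chromosome genes (MKI67 and TOP2A), 6 of 8 kinetochore and checkpoint genes and 5 of 7 spindle genes. The same held for 3 of 5 kinases, cyclins and FOXM1, 2 of 3 passenger genes and 1 of 2 genes of the anaphase-promoting complex. These lists are short, and differences between roles were not tested. The 8 exceptions were BIRC5, CDC20 and KIF2C, lower in 2 pairs, and CENPA, CCNB2, FOXM1, NUSAP1 and NUF2, lower in 3. KIF2C differed by -0.21 ± 0.13 on the PRP arrays and 0.13 ± 0.13 on the SVF arrays. BIRC5 differed by 0.06 ± 0.13 on the PRP arrays and -0.16 ± 0.13 on the SVF arrays. In company B the 8 exceptions were between 1.32-fold (CENPA) and 5.01-fold (BIRC5) higher. Between these lay CCNB2 (2.84-fold), KIF2C (2.85-fold), NUSAP1 (2.93-fold), CDC20 (3.93-fold), NUF2 (4.38-fold) and FOXM1 (4.69-fold). Across the 34 genes the PRP and SVF differences had a Pearson r of 0.80, and the PRP difference and that of company B had one of -0.24. Genes are not independent replicates, and these values are a description.

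**Figure D3:**
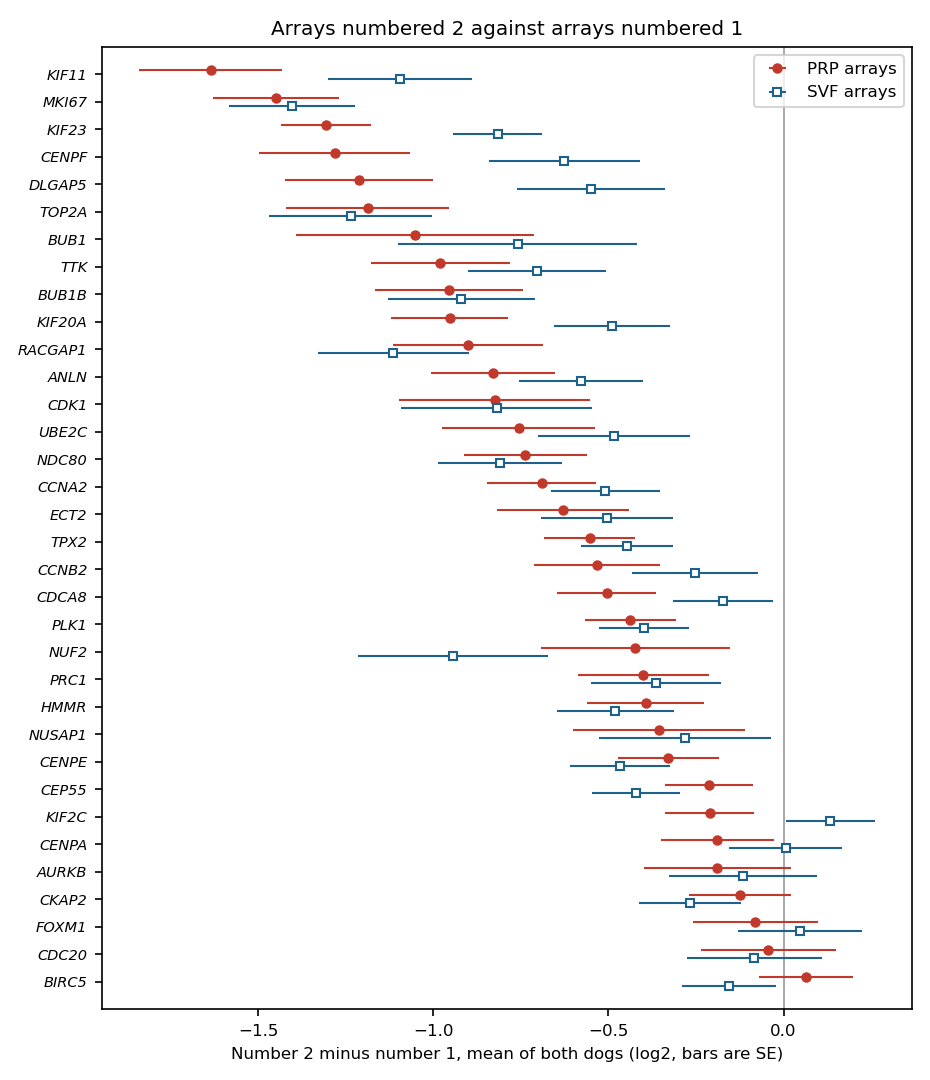
Difference between the arrays numbered 2 and those numbered 1 (log2, mean of both dogs, bars are the SE from limma) of each gene, on the PRP arrays (filled circles) and the SVF arrays (open squares). On the PRP arrays 33 of 34 genes lie below 0 and on the SVF arrays 31, from KIF11 at -1.64 to BIRC5 at 0.06 on the PRP arrays.

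In the list of 71 other mitosis genes, 28 were lower in number 2 in all 4 pairs (20.2% of all genes). At an unadjusted p below 0.05, 21 were lower on the PRP arrays (9.77% of all genes) and 16 on the SVF arrays (12% of all genes). KNL1, the kinetochore scaffold that binds BUB1 and BUB1B, passed the adjusted threshold, with a difference of -1.46 ± 0.14 on the PRP arrays (limma, adjusted p = 0.045). It had 5.76 and 5.30 on the PRP arrays numbered 2 of dogs 3 and 2, against 7.05 and 6.92 on those numbered 1, without overlap. Markers of several cell types differed along the number too. Macrophage markers had median differences of -0.36 on the PRP arrays, with 0 of 10 above 0, and -0.66 on the SVF arrays, with 1 of 10 above 0. Neutrophil markers had -0.46 on the PRP arrays (2 of 8 above 0) and -0.041 on the SVF arrays (3 of 8). Endothelial markers had -0.35 (2 of 11 above 0) and 0.20 (9 of 11), and adipocyte markers -0.18 (2 of 11) and -0.34 (0 of 11). T and NK cell markers had medians of -0.34 and -0.28 over 12 genes, and stromal markers of -0.13 and -0.069. The part of these cells in the difference of the mitosis genes was not tested.

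The next question was whether PRP with 6 h of incubation changed these genes. No member passed the adjusted threshold over both dogs, where 0.00627% of all genes (1 gene) did, and the smallest adjusted p among the members was 0.506. The median difference of PRP minus SVF was 0.24 log2 units, against -0.014 over all genes, and 30 of the 34 were above 0, where 47.4% of all genes were. At an unadjusted p below 0.05, 1 of the 34 was higher in PRP (3.11% of all genes) and none lower (5.21%). In no member did both PRP arrays lie above, or below, both SVF arrays in each dog (5.15% and 8.42% of all genes).

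Same-numbered arrays moved together. Over all genes their deviations from the group means had an r of 0.24 and 0.39 within dogs 3 and 2. Across the dogs it was 0.60 (PRP) and 0.51 (SVF). A comparison within same-numbered pairs of a dog takes out only the part of the difference along the number that PRP and SVF arrays share. It gave more members past the unadjusted threshold. When the replicate block of same-numbered arrays entered the fit, 13 of the 34 were higher in PRP at an unadjusted p below 0.05 (6.13% of all genes), and with the number as a term in the model 12 were (5.44%). Neither fit had a member past the adjusted threshold, and the lowest adjusted p of any member over all settings was 0.264. PRP was higher than SVF in all 4 pairs for 13 of the 34 genes (12% of all genes), and the medians of the 4 pairs were 0.16 and 0.11 (dog 3, numbers 2 and 1) and 0.19 and 0.47 (dog 2, numbers 2 and 1). With each array left out in turn the members' median stayed above 0, between 0.065 (without dog 3 SVF 2) and 0.41 (without dog 2 PRP 2).

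NUF2, the kinetochore subunit, had the largest difference. It read 6.47 and 6.39 on the PRP arrays of dog 3 (numbers 2 and 1), against 4.87 and 6.04 on its SVF arrays. In dog 2 it read 5.46 and 6.39 on the PRP arrays, against 4.92 and 5.64 on the SVF arrays. The groups were apart in dog 3 and overlapped in dog 2. The difference was 0.81 ± 0.32, or 1.75-fold (limma, unadjusted p = 0.0385, adjusted p = 0.506).

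ECT2 had 7.01 and 7.67 on the PRP arrays of dog 3, against 6.40 and 7.27 on its SVF arrays, and 7.06 and 7.66 on the PRP arrays of dog 2, against 6.79 and 6.94 on its SVF arrays. PRP was the higher in each pair, the groups overlapped in dog 3 and were apart in dog 2. The difference was 0.50 ± 0.25, with an unadjusted p of 0.0875 in the 4-group fit and 0.00531 with the replicate block (adjusted p = 0.264). NUSAP1 differed by 0.45 ± 0.20 (unadjusted p = 0.0610). A second feature that names NUSAP1 differed by 0.09. MKI67 was higher in all 4 pairs, by 0.10 to 0.64, and TOP2A in 3 of 4. Their differences were 0.35 ± 0.54 and 0.34 ± 0.47 in the 4-group fit. With the replicate block the SEs were 0.12 and 0.14, and the unadjusted p-values were 0.0301 for MKI67 and 0.0542 for TOP2A (adjusted p = 0.330 and 0.361).

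PLK1 was the only member lower in PRP in all 4 pairs, by 0.11 to 0.29 log2 units. It had 6.23 and 6.76 on the PRP arrays of dog 3, against 6.52 and 6.93 on its SVF arrays, and 6.32 and 6.66 on the PRP arrays of dog 2, against 6.43 and 6.82 on its SVF arrays. The groups overlapped in both dogs, and the difference was -0.18 ± 0.19 in the 4-group fit. With the replicate block its SE was 0.098 and its unadjusted p 0.115. CENPF (-0.06), CENPA (-0.01) and TTK (-0.01) were the other members with a mean below 0, and these 3 turned positive when arrays were centred on their medians.

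**Figure D4:**
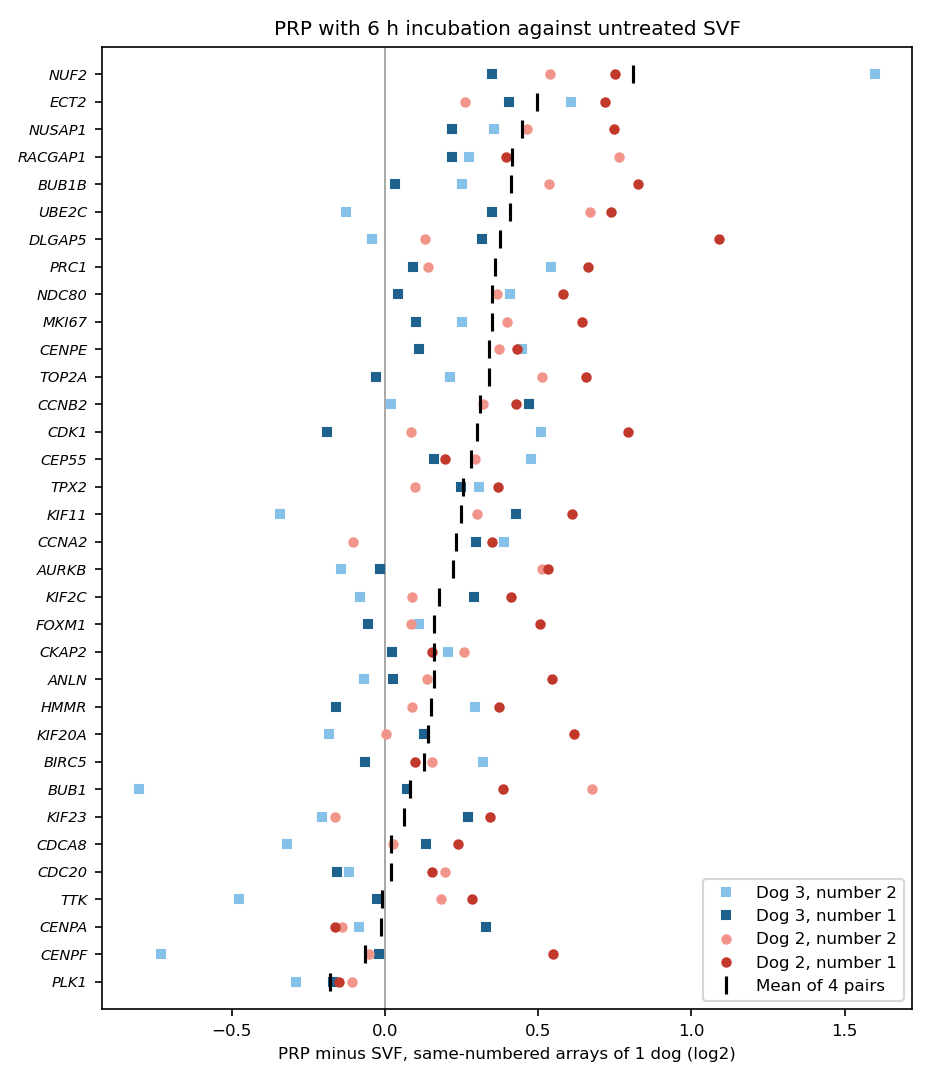
PRP minus SVF (log2, horizontal) of each gene for the 4 same-numbered pairs of arrays, dog 3 as squares and dog 2 as circles, with the mean of the 4 pairs as a black bar. Most means lie between 0 and 0.5, the pairs of 1 gene spread widely, and NUF2 (0.81) and PLK1 (-0.18) are at the ends.

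The 2 dogs were not shown to differ in this response. In dog 3 the members' median was 0.12, with 25 of 34 above 0 (43.6% of all genes), and 3 of the 34 had both PRP arrays above both SVF arrays (10.2% of all genes): CCNB2, CEP55 and NUF2. In dog 2 the median was 0.36, with 32 of 34 above 0 (53.6% of all genes), and 11 had both PRP arrays above (19.6% of all genes). The median of dog 3 was below 0 without dog 3 PRP 1 (-0.12) or without dog 3 SVF 2 (-0.14). AURKB had 8.34 and 8.51 on the PRP arrays of dog 2, against 7.83 and 7.98 on its SVF arrays, while in dog 3 it had 8.08 and 8.29 on the PRP arrays, against 8.22 and 8.30 on the SVF arrays. The interaction of dog and condition had no member and no other gene past the adjusted threshold (0% of all genes), and the members' median in it was -0.26, with 7 of 34 above 0 (39.7% of all genes). Without incubation, dog 3 was above dog 2 by a median of 0.26, in 29 of 34 members (52.4% of all genes), with no member past the adjusted threshold (1.72% of all genes). Without dog 3 SVF 1 this median was 0.0067, and without dog 2 SVF 2 it was 0.056. In the same contrast the median was 0.51 for macrophage markers (8 of 10 above 0), 0.26 for stromal (12 of 12), -1.54 for endothelial (0 of 11), -1.03 for pericyte and smooth muscle (0 of 10), -0.98 for adipocyte (0 of 11) and -0.77 for mast cell markers (1 of 7), and their part was not tested. Both dog 3 arrays lay above both dog 2 arrays for AURKB, NUSAP1, UBE2C and CDCA8, 4 of the 34 (22.6% of all genes).

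Of the 71 other mitosis genes, 4 (5.63%) were higher and 1 (1.41%) lower in PRP at an unadjusted p below 0.05, against 3.11% and 5.21% of all genes, and none passed the adjusted threshold. PTTG1 had 8.21 and 8.34 on the PRP arrays of dog 3, against 7.35 and 8.05 on its SVF arrays, and 8.52 and 8.14 on the PRP arrays of dog 2, against 7.33 and 7.44 on its SVF arrays. The groups did not overlap in either dog, and the difference was 0.76 ± 0.18 (unadjusted p = 0.00383, adjusted p = 0.379). ASPM, a spindle pole protein, differed by 0.74 ± 0.24, the motor KIF14 by 0.49 ± 0.15 and PKMYT1, a kinase that inhibits CDK1, by -0.37 ± 0.13. In the same contrast the median of the adipocyte markers was -0.74, with 0 of 11 above 0, of the T and NK cell markers 0.29, with 10 of 12 above 0, and of the macrophage markers 0.24, with 7 of 10 above 0. Their part in the members' differences was not tested.

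**Figure D5:**
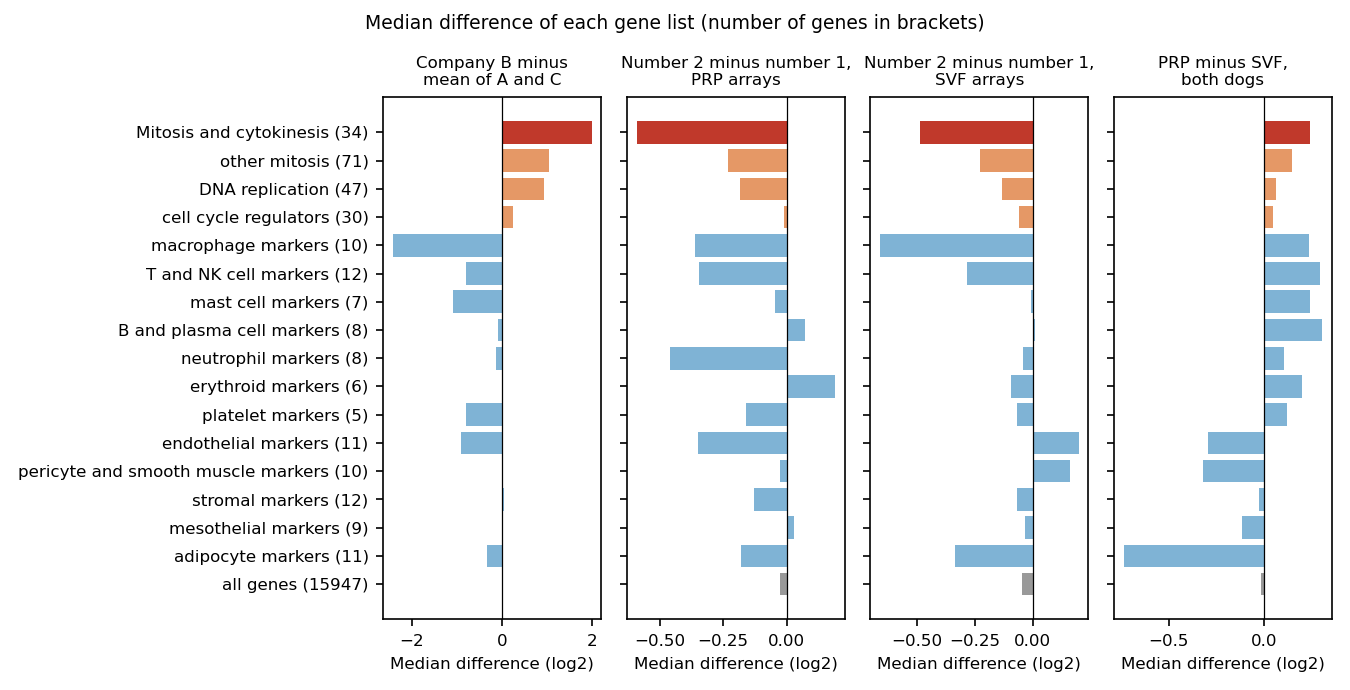
Median log2 difference of the 34 genes (red), 3 related lists (orange), 12 lists of cell type markers (blue) and all genes (grey) in 4 comparisons, with the number of genes in brackets and a separate horizontal scale in each panel. The 34 genes have a median of 1.98 in company B, where macrophage markers have -2.41, while on arrays numbered 2 both lie below 0, and in PRP both have 0.24.

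Over the 8 arrays of dogs 2 and 3 the members moved together. The median Pearson r over pairs of members was 0.70, against 0.012 over pairs of all genes. For deviations from the 4 group means it was 0.84, against 0.025. With 2 arrays per group, these deviations hold only the differences between numbers 1 and 2 given above, so this value is no separate result. These arrays share dogs, digestion and array numbers, and the values are a description over 8 arrays. NDC80 (0.98), ANLN (0.98), MKI67 (0.97) and TOP2A (0.96) followed the mean of the other members most closely, and 22 members had an r above 0.8 to it. CENPA (0.08), CDC20 (0.16), KIF2C (0.29), BIRC5 (0.30) and FOXM1 (0.39) followed it least. The 2 arrays of a group differed more in these genes than in others, by a root mean square of 0.64 to 0.85 log2 units, against 0.35 to 0.52 over all genes. This again restates the differences between numbers 1 and 2 and is no separate result.

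Of the genes that are not members, the 5 closest to the members' mean over the 8 arrays were AIF1 (r = 0.991), PGAP1 (0.986), KNL1 (0.983), STK26 (0.983) and RAC2 (0.983). AIF1 encodes a calcium-binding protein of macrophages and RAC2 a GTPase of blood cells. In the company arrays KNL1 was 1.93 log2 units higher in company B than the mean of companies C and A. The other 4 were lower there. AIF1 had 4.09 in company B, 8.33 in company C and 7.97 in company A, STK26 differed by -1.75, RAC2 by -1.64 and PGAP1 by -0.53.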

How the data were processed

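The deposited values run from 1.22 to 14.8 over 32391 features and were taken as log2 levels for that reason. Per the labels' protocols, biotinylated RNA came from 6 µg of total RNA. Partek is named, without a version, per the submitters' processing notes. Not given in the sources used here are the summarization, the normalization and the genome build, and coordinates are left out. The platform annotation names 1 gene for 16545 features, several for 370 and none for 15476. By gene identifier 32 of the 34 members matched UU_Cfam_GSD_1.0, with 0 other symbols; MKI67 and CENPE did not match.

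The 8 arrays of dogs 2 and 3 were fitted with limma 3.58.1 in R 4.3.3 as 4 group means (4 residual degrees of freedom). The numbers were compared in a fit of dog plus condition by number (3 residual degrees of freedom). All p-values were two-sided, and the threshold was 0.05 after Benjamini-Hochberg adjustment across the whole array. The code was tested on simulated data. Companies were compared at 2-fold with no test. Same-numbered arrays' deviations from their group means correlated over genes at 0.24 in dog 3 and 0.39 in dog 2, and at 0.60 (PRP) and 0.51 (SVF) across the dogs; on this the numbers were taken to pair samples.

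All 34 members are named; of other mitosis genes up to 3 in each direction were named by p or fold, plus KNL1 for its adjusted p. The members, gene lists and tests were chosen with earlier results of these data known. No sequences are shown, and the 2 members without a feature of their own were not analysed here.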

Additional observations from a re-analysis of the deposited data

How the results depend on the processing

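The company counts and medians were little moved by the alternatives run: with arrays centred on their medians, company B's median was 2.12 and 31 members were at least 2-fold higher, with all features of a gene averaged 29 were, and at 1.5-fold 33 were. For PRP minus SVF the members' median kept its sign under every setting run. The count of members higher at an unadjusted p below 0.05, 1 as reported, was 3 with arrays centred and 3 with quantile normalization, 13 with the replicate block, 12 with the number as a term, and 0 to 6 with each array left out. The block changed no adjusted call among the members, and over all genes it left 0 in place of 1. For number 2 minus number 1 on the PRP arrays, the 1 adjusted call was 0 with quantile normalization and 0 to 2 with each array left out, and the unadjusted count was 14 to 23. On the SVF arrays the unadjusted count was 7 to 20. Leaving out arrays moved the medians between 0.046 and 0.70 (dog 2), -0.14 and 0.45 (dog 3), -0.50 and 0.12 (dog 3 minus dog 2 in the response), and 0.0067 and 0.59 (dog 3 minus dog 2 without incubation).

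Of 588 differences of single members over the settings, 47 changed sign, in 14 members, all of them uncalled. CENPA became 0.0604 (centred) and 0.0183 (quantile), CENPF 0.0101 (centred), and TTK 0.0649 (centred) and 0.0202 (quantile). With arrays left out the ranges were -0.0694 to 0.77 (MKI67), -0.0394 to 0.72 (TOP2A), -0.0448 to 0.64 (CDK1), -0.22 to 0.38 (BUB1), -0.0716 to 0.0454 (CENPA), -0.39 to 0.26 (CENPF), -0.23 to 0.73 (KIF11), -0.13 to 0.42 (KIF20A), -0.28 to 0.40 (KIF23), -0.0564 to 0.38 (ANLN), -0.30 to 0.28 (TTK), -0.0549 to 0.0932 (CDC20), -0.11 to 0.15 (CDCA8) and -0.022 to 0.32 (HMMR). The cause was not tested. Where 1 array remained in a group, its spread was taken from the others. Leaving arrays out of the number contrasts, and taking number 2 or number 1 arrays alone for PRP, were chosen after seeing the data.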

Other observations

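Genes of DNA replication, which act in S phase before mitosis, were also mostly higher in company B. Against the mean of companies C and A, 46 of 47 were above 0 (38.6% of all genes) and the median was 0.92 log2 units. By at least 2-fold 21 were higher (3.87% of all genes). RRM2, a subunit of the enzyme that makes deoxynucleotides, had 9.01 in company B, 6.56 in company C and 6.97 in company A. CDC6, which loads the replicative helicase, had 7.79, 5.26 and 5.51 in the same order. PCNA, the sliding clamp of DNA polymerase, had 9.52, 8.93 and 8.44. A list of 30 regulators that decide whether a cell cycles (such as retinoblastoma family members and cyclin-dependent kinase inhibitors) had a median of 0.24. By at least 2-fold 4 of them were higher (3.87% of all genes) and 3 lower (5.58% of all genes).

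Along the array numbers, number 2 was lower in all 4 pairs for 14 of 47 replication genes and 3 of 30 regulators, where 20.2% of all genes were. With PRP and incubation no gene of either list passed the adjusted threshold (limma). RRM2 differed by 0.62 ± 0.20 (unadjusted p = 0.0168) and PCNA by 0.28 ± 0.12 (unadjusted p = 0.0502). FZR1, an activator of the anaphase-promoting complex after mitosis, differed by -0.42 ± 0.13 (unadjusted p = 0.0162), and LIN9, a subunit of a complex that regulates mitotic genes, by 0.48 ± 0.18 (unadjusted p = 0.0267).

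The second feature naming NUSAP1 went the other way along the array numbers, with differences of 0.39 on the PRP arrays and 0.38 on the SVF arrays, against -0.36 and -0.28 for the one used above. In company B it was higher by 0.31, against 1.55.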
